A study of Mus musculus with 12 samples.

Results

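The transcripts examined here were 10 markers used to tell monocytic from granulocytic myeloid cells. They were chosen by gene symbol, and all 10 were found among the 35303 symbols of the count table. Ly6c1, Ly6c2, Adgre1, Csf1r, F13a1, Fn1, and Mertk were taken as the 7 monocytic markers, and Ly6g, Csf3r, and Retnlg as the 3 granulocytic markers. Each of the 10 was among the 17676 symbols with at least 2 counts over all libraries, which were the symbols tested.

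Bulk RNA sequencing covered 3 groups of myeloid-derived suppressor cells (MDSCs), with 4 libraries per group. All groups started from bone marrow of female C57BL/6 wild-type mice aged 6 to 10 weeks, grown with GM-CSF and IL-6, harvested on day 3, and purified with a kit for CD11b+Gr1+ cells. The groups were unmodified MDSCs (MDSC), MDSCs carrying blank PLGA nanoparticles (MDSC-NP-Blk), and MDSCs carrying rapamycin-loaded nanoparticles (CITED), each then kept for 24 hours with IL-6 at 40 ng/ml. The nanoparticles were attached to azide groups on the cells, and whether the unmodified cells had also received the azide sugar is not stated. The labels give the CNS as the tissue, whereas according to the methods the cells were cultured from bone marrow. Whether the 4 replicates of a group came from separate mice is not given in the labels, so the p-values measure the spread between these libraries.

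Monocytes and neutrophils arise from shared bone marrow progenitors, and MDSCs are divided along the same line into monocytic and polymorphonuclear subtypes. The split is usually read from the Ly6 surface antigens, since monocytic cells carry Ly6C without Ly6G and granulocytic cells carry Ly6G with less Ly6C. The Gr1 antibody binds both antigens, and the study describes both subtypes in these cultures. In a mixed culture, fewer cells of a type and less RNA per cell cannot be told apart.

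The libraries held 20604809 to 37855478 counts. Transcripts used as labels of MDSCs were present throughout, with mean normalized counts over the 12 libraries of 60974 for Itgam (CD11b), 14602 for Ptprc (CD45), 285150 for S100a8, and 316834 for S100a9. A normalized count is a count scaled to a library of mean size with the TMM factors. The 6 B cell markers, none at 0 throughout, summed to 12.7 to 15.3 CPM (counts scaled to the size and TMM factor of the library) in MDSC libraries, to 7.59 to 10.3 CPM with blank nanoparticles, and to 3.15 to 4.66 CPM in CITED. The 7 T and NK cell markers, 1 of them at 0 throughout, summed to 20.2 to 24.7, 17.3 to 20.1, and 5.61 to 7.22 CPM in the same order. The 5 eosinophil markers summed to 1254 to 1496 CPM in MDSC libraries, to 1003 to 1199 CPM with blank nanoparticles, and to 409 to 416 CPM in CITED, and none of the 5 was at 0 throughout. The 5 basophil and mast cell markers summed to 412 to 448, 467 to 515, and 244 to 269 CPM, respectively. Lists for dendritic, erythroid, megakaryocytic, progenitor, and stromal or endothelial cells summed to at most 70.5, 4.97, 333, 155, and 73.3 CPM in any library. The sums for B cell, T and NK cell, eosinophil, and basophil markers moved with the groups, and their part in the results below was not tested. In CITED against MDSC, 5 of the 6 B cell genes were differentially expressed as lower, against 6.7% of all genes tested. Of the 6 tested T and NK cell genes, only Nkg7 was, with mean normalized counts of 500 in MDSC and 103 in CITED. The median log2 fold change of these 6 was 0.71. Of the 5 eosinophil genes, 1 was higher and 2 were lower at an adjusted p below 0.05 in edgeR. Of all genes tested, 22.2% were so in each direction.

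The Ly6 antigens are small proteins held at the membrane by a lipid anchor, and their genes lie close together on chromosome 15. Ly6C antibodies recognize the products of Ly6c1 and Ly6c2, which are near copies. The first 270 coding bases are shown because sequencing reads from one can be assigned to the other. Capitals in Ly6c1 and Ly6c2 mark bases that differ between these 2 genes, and capitals in Ly6g mark bases that differ from Ly6c2, or have no counterpart in it, in a global alignment. The exons were joined in GENCODE release 39 on GRCm39, from Ly6c1 at chr15:74915847-74920686 (minus strand), Ly6c2 at chr15:74980003-74988467 (minus strand), and Ly6g at chr15:75027089-75030982 (plus strand).
Ly6c1: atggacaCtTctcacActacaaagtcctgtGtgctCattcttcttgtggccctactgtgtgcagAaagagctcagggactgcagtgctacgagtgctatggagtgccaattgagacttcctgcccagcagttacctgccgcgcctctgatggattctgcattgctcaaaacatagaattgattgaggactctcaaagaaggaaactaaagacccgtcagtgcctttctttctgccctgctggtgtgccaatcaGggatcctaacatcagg
Ly6c2: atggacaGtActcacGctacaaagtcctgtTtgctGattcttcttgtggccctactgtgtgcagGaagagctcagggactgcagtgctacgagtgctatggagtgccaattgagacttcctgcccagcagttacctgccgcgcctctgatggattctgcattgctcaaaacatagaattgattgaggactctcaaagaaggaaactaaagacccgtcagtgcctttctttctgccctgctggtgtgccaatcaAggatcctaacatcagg
Ly6g: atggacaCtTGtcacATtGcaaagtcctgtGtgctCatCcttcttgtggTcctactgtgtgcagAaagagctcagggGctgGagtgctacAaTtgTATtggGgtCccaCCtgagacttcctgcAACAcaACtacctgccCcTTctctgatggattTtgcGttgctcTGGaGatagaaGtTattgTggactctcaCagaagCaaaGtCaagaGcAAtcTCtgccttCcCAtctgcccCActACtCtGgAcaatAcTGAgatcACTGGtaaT

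Of the 396 coding bases of Ly6c1 and Ly6c2, 387 were identical and 9 differed, 7 of them in the stretch shown, and the longest identical stretch ran for 188 bases. Ly6c2 and Ly6g were identical over 78.3% of the aligned columns. Over whole transcripts, 60.3% of the 31-base words of Ly6c1 and 53.9% of those of Ly6c2 also occurred in transcripts of other genes, against 11% for Ly6g. The division of reads between Ly6c1 and Ly6c2 is therefore uncertain, and the few counts of Ly6c1 are the more exposed to it. Csf3r shared 24.3% of its words, most of them with the pseudogene Csf1r-ps, which averaged 12.9, 27.9, and 36.1 normalized counts in the MDSC, MDSC-NP-Blk, and CITED groups. Retnlg shared 5.41%, and each of the other markers shared under 2%.

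Ly6c2 was the abundant Ly6C transcript, and it moved in opposite directions with the 2 kinds of nanoparticle. Its normalized counts were 25729, 25955, 24887, and 25968 in MDSC replicates 1 to 4. In MDSC-NP-Blk they were 34031, 33147, 33957, and 33187. In CITED they were 21887, 19071, 20452, and 19308. No library of one group reached the range of another, with MDSC-NP-Blk highest and CITED lowest. Relative to MDSC, Ly6c2 rose in MDSC-NP-Blk by 0.39 on the log2 scale (standard error, SE, 0.0442, adjusted p = 5.26e-09 by the quasi-likelihood test of edgeR). It fell in CITED by 0.35 on the log2 scale against MDSC (adjusted p = 3.93e-08) and by 0.73 against MDSC-NP-Blk (adjusted p = 6.82e-15), both from edgeR. The size of the change against MDSC depended on the normalization: the log2 values were 0.13 in MDSC-NP-Blk and −0.62 in CITED with library size alone, and 0.12 and −0.60 with the length correction, all past the test.

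Ly6c1 was close to the limit of detection, with raw counts of 9 to 66 per library. Its normalized counts were 35.3, 17.1, 33.1, and 47.2 in MDSC, and 38.2, 45.4, 34.3, and 46.7 in MDSC-NP-Blk. In CITED they were 30.0, 11.0, 13.3, and 10.6, so replicate 1 stood above the others and overlapped the MDSC libraries. The log2 fold change in CITED was −1.04 against MDSC (SE 0.393, adjusted p = 0.0291) and −1.36 against MDSC-NP-Blk (adjusted p = 0.00970), and edgeR's test was passed in both. Against MDSC this call rested on single libraries. The adjusted p from edgeR was 0.0576 without MDSC replicate 1, 0.121 without MDSC replicate 4, and 0.0799, 0.0699, and 0.0968 without CITED replicates 2, 3, and 4. Between MDSC-NP-Blk and MDSC, Ly6c1 did not pass the test (log2 fold change 0.31, adjusted p = 0.533 from edgeR).

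Ly6g, the neutrophil antigen of the family, differed little between groups. Its normalized counts were 3891, 4049, 3802, and 3952 in MDSC, and 4643, 4625, 4621, and 4356 in CITED. The CITED libraries lay above all MDSC libraries. In MDSC-NP-Blk the counts were 4858, 4557, 4012, and 4986, and replicate 3 overlapped MDSC. Compared with MDSC, Ly6g rose on the log2 scale by 0.22 with rapamycin-loaded nanoparticles (SE 0.0554, adjusted p = 0.00136) and by 0.23 with blank ones (adjusted p = 0.000918) in edgeR. These small rises depended on the normalization. With library size alone they became −0.06 and −0.03. With a correction for transcript length they were −0.03 and −0.03, and none of these 4 values passed the test. A centred level is a gene's log2 CPM minus its mean over the 12 libraries. Spearman's rho of centred level with transcript length, across genes, was 0.22 to 0.35 in MDSC libraries and −0.34 to −0.19 in CITED libraries. Centring makes opposite signs between groups partly built in. This rho therefore compares libraries with each other, and does not show whether longer genes were the more expressed within a group. Between CITED and MDSC-NP-Blk, Ly6g had a log2 fold change of −0.01 (adjusted p = 0.936 from edgeR).

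Of the 10 tested genes of the Ly6 family, these 3 included, 4 passed the test as higher and 3 as lower in CITED against MDSC, and 5 and 0 passed in MDSC-NP-Blk. Ly6i, the gene that shared most 31-base words with Ly6g, rose by 1.62 on the log2 scale in CITED, and Ly6a, the stem cell antigen Sca-1, rose by 1.20. Ly6e rose by 0.68. Among the 10 genes of the MDSC label, which include Ly6c1, Ly6c2, and Ly6g, 4 passed as higher and 3 as lower in CITED against MDSC, and 8 and 1 in MDSC-NP-Blk. Over all genes tested, 22.2% passed in each direction in CITED against MDSC. In MDSC-NP-Blk, 19.9% passed as higher and 18.6% as lower.

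**Figure D1:**
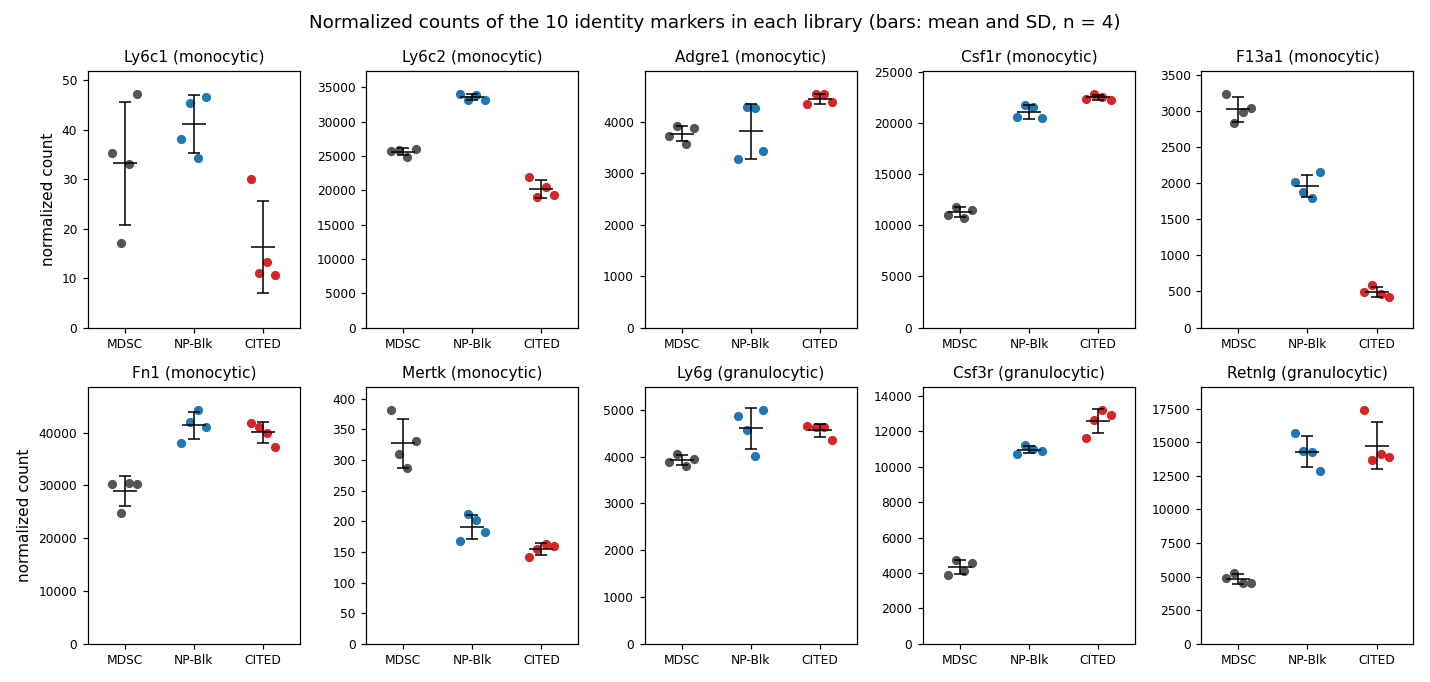
Normalized counts (vertical axes, each from 0) of the 10 markers in the 12 libraries, with 1 point per library and bars for the mean and SD of the 4 libraries of a group. F13a1 was lowest in CITED, at 421 to 585, and Csf1r, Csf3r, and Retnlg were higher in both nanoparticle groups than in every MDSC library.

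The receptors for the colony-stimulating factors rose together in both nanoparticle groups. Csf1r encodes the receptor for M-CSF, which supports monocytes and macrophages, and Csf3r encodes the receptor for G-CSF, which drives the formation of neutrophils. Csf1r had normalized counts of 11019, 11823, 10763, and 11541 in MDSC. In MDSC-NP-Blk it had 20608, 21797, 21589, and 20453, and in CITED 22385, 22833, 22591, and 22234. Both nanoparticle groups lay above every MDSC library. From MDSC, Csf1r changed on the log2 scale by 1.00 in CITED (SE 0.0439, adjusted p = 1.45e-19) and 0.90 in MDSC-NP-Blk (adjusted p = 7.07e-18), from edgeR. Its fold change in CITED, 1.99, lay just under the threshold of a doubling used to call a gene differentially expressed. CITED and MDSC-NP-Blk differed by 0.09 on the log2 scale, which did not pass the test in edgeR (adjusted p = 0.138) but did in DESeq2 (adjusted p = 0.0337) and in edgeR with the length correction (log2 value 0.17, adjusted p = 0.00130).

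For Csf3r, the normalized counts were 3910, 4755, 4106, and 4545 in MDSC. They were 10754, 11211, 11027, and 10912 in MDSC-NP-Blk, and 11608, 12635, 13194, and 12953 in CITED. The 3 groups did not overlap, and CITED was highest. The log2 change from MDSC was 1.54 in CITED (SE 0.0550, adjusted p = 6.37e-22) and 1.34 in MDSC-NP-Blk (adjusted p = 9.40e-20), and Csf3r also rose by 0.20 in CITED against MDSC-NP-Blk (adjusted p = 0.00540), all from edgeR.

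Other genes of these receptor pathways were read from a list of 13 ligands and receptors that includes Csf1r and Csf3r, of which 12 were tested. Against MDSC, 7 of the 12 passed the test as higher in CITED and 8 in MDSC-NP-Blk, and 0 as lower in either. The shares of all genes tested that passed as higher were 22.2% and 19.9%. Csf2rb and Csf2rb2, which encode signalling subunits of the receptors for GM-CSF and related cytokines, had log2 fold changes of 0.99 (adjusted p = 1.5e-19) and 1.07 (adjusted p = 7.7e-19) in CITED from edgeR. Csf1, the gene for M-CSF itself, rose by 0.73 in CITED and 0.90 in MDSC-NP-Blk. Over the 12 genes the median log2 fold change was 0.86 for CITED and 0.57 for MDSC-NP-Blk, against −0.05 and −0.03 over all genes tested.

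F13a1, which encodes the A subunit of the clot-stabilizing transglutaminase factor XIII, fell in both nanoparticle groups. Its normalized counts were 3234, 2827, 2984, and 3045 in MDSC. They were 2015, 1885, 1789, and 2150 in MDSC-NP-Blk, and 488, 585, 467, and 421 in CITED. The groups did not overlap. Against MDSC, F13a1 was 6.18-fold lower in CITED (log2 fold change −2.63, SE 0.0788, adjusted p = 5.89e-24) and 1.54-fold lower in MDSC-NP-Blk (log2 fold change −0.63, adjusted p = 5.15e-09), from edgeR. It was 4.01-fold lower in CITED than in MDSC-NP-Blk (adjusted p = 1.03e-19 from edgeR).

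Retnlg, the gene for resistin-like gamma, a product of neutrophils, rose with either nanoparticle. Its normalized counts were 4927, 5302, 4531, and 4533 in MDSC. They were 15653, 14370, 14293, and 12893 in MDSC-NP-Blk, and 17372, 13654, 14112, and 13876 in CITED. Both nanoparticle groups lay above MDSC and overlapped each other. Against MDSC, the log2 fold change was 1.61 in CITED (SE 0.0661, adjusted p = 2.10e-20) and 1.57 in MDSC-NP-Blk (adjusted p = 1.82e-19), from edgeR. CITED and MDSC-NP-Blk differed by 0.04 (adjusted p = 0.697 from edgeR). The other resistin genes, Retn, Retnla, and Retnlb, had mean normalized counts of at most 38.0 in any group, and none passed the test in any comparison.

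Fn1 encodes fibronectin, an extracellular matrix protein that factor XIII can cross-link to fibrin. Its normalized counts were 30301, 24687, 30398, and 30298 in MDSC. They were 38075, 42028, 44212, and 41066 with blank nanoparticles, and 41862, 41028, 39988, and 37313 in CITED. MDSC replicate 2 stood below the rest of its group, and every MDSC library lay below both other groups. Compared with MDSC, edgeR gave a rise of 0.47 on the log2 scale for CITED (SE 0.0550, adjusted p = 6.11e-09) and 0.52 for MDSC-NP-Blk (adjusted p = 1.43e-09), opposite to F13a1. The rise in CITED was 0.19 with library size alone and 0.80 with the length correction, and it passed the test in both. Between CITED and MDSC-NP-Blk the difference of −0.05 did not pass the test (adjusted p = 0.618 from edgeR).

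Among 11 tested genes for factor XIII, fibronectin, other transglutaminases, and fibronectin-binding integrins, 5 passed the test as higher and 4 as lower in CITED against MDSC. In this comparison 44.5% of all genes tested passed. Itga4, the alpha chain of the integrin VLA-4, had log2 fold changes of −2.13 (CITED) and −1.13 (MDSC-NP-Blk). For Tgm2, which encodes tissue transglutaminase, they were 0.45 and 0.73. The list thus held genes that moved either way, and its median was −0.02 in CITED and 0.22 in MDSC-NP-Blk.

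The markers of macrophage maturation did not move as 1 group. Adgre1 encodes the macrophage antigen F4/80, and Mertk encodes a receptor tyrosine kinase used in the uptake of apoptotic cells. Adgre1 had normalized counts of 3720, 3905, 3571, and 3869 in MDSC. With blank nanoparticles it had 3267, 4272, 4265, and 3421, and in CITED 4341, 4526, 4532, and 4381. The CITED libraries were tight and highest, whereas the MDSC-NP-Blk libraries fell into a low and a high pair. The rho of centred level with transcript length, as given for Ly6g, was −0.42 and −0.24 in the low pair (replicates 1 and 4). It was −0.05 and 0.09 in the high pair (replicates 2 and 3), and a link was not tested. Adgre1 rose in CITED by a log2 value of 0.24 against MDSC (SE 0.0646, adjusted p = 0.00234) and 0.22 against MDSC-NP-Blk (adjusted p = 0.0105), from edgeR. The latter did not pass without MDSC-NP-Blk replicate 1 (adjusted p = 0.0507) or replicate 4 (adjusted p = 0.0515), and with library size alone the former was −0.03 (adjusted p = 0.702), all from edgeR. MDSC-NP-Blk and MDSC differed by 0.02 (adjusted p = 0.872 from edgeR), and with library size alone by −0.24 (adjusted p = 0.00221). Of the 3 genes of its family, Adgre1 and Adgre5 (0.24) passed as higher in CITED against MDSC, as did 22.2% of all genes tested.

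Mertk had normalized counts of 381, 310, 287, and 331 in MDSC. With blank nanoparticles it had 168, 212, 203, and 182, and in CITED 141, 155, 163, and 160. The groups did not overlap. Against MDSC, Mertk fell by 1.08 on the log2 scale in CITED (SE 0.121, adjusted p = 2.43e-09) and by 0.77 in MDSC-NP-Blk (adjusted p = 1.66e-06), from edgeR. Without MDSC replicate 1 the change in CITED was just short of a halving, with an absolute log2 fold change under 1. CITED and MDSC-NP-Blk differed by −0.31 (adjusted p = 0.0768 from edgeR), and this value passed without MDSC-NP-Blk replicate 1 (adjusted p = 0.0434). Axl, a receptor of the same family, had a log2 fold change of −0.02 in CITED (adjusted p = 0.92 from edgeR), and Pros1, a ligand of Mertk, had −0.63 (adjusted p = 0.013), a call that was lost in edgeR without MDSC replicate 4 (adjusted p = 0.0748) or CITED replicate 2 (adjusted p = 0.0747). Of 6 tested genes for receptors of this family, their ligands, and a related bridging protein, 1 passed as higher and 2 as lower in CITED, and 0 and 4 in MDSC-NP-Blk. Of all genes tested, 44.5% and 38.6% passed in these comparisons.

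**Figure D2:**
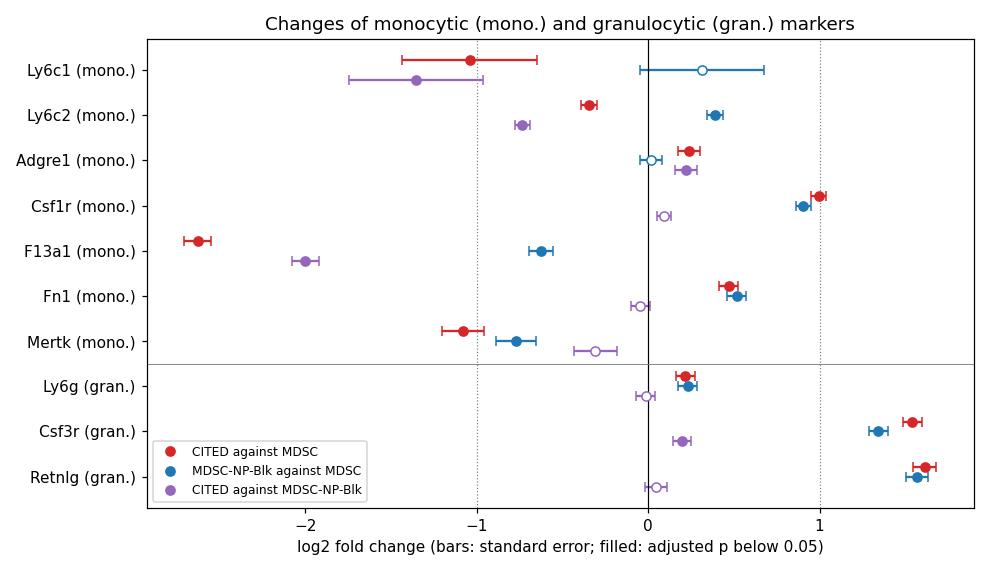
Log2 fold changes (horizontal axis) of the 7 monocytic and 3 granulocytic markers in the 3 comparisons, with standard errors as bars, filled points for adjusted p below 0.05, and dotted lines at a log2 fold change of 1 in either direction. F13a1 lay farthest to the left in both comparisons of CITED, whereas Csf3r and Retnlg lay beyond 1 in both comparisons against MDSC.

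By class, the 3 granulocytic markers were all higher in CITED than in MDSC with TMM factors, and the 7 monocytic markers were divided. The rises of Ly6g and Adgre1 depended on the normalization. With library size alone their log2 values were −0.06 and −0.03, and with the length correction that of Ly6g was −0.03, none past the test. All 10 markers passed the test in this comparison, where 44.5% of all genes tested did so, with 6 higher and 4 lower (22.2% of all genes in each direction). Of the monocytic markers, Adgre1, Csf1r, and Fn1 rose and Ly6c1, Ly6c2, F13a1, and Mertk fell. With the fold threshold added, 2 were differentially expressed as higher, the granulocytic Csf3r and Retnlg, and 3 as lower, the monocytic Ly6c1, F13a1, and Mertk, against 9.99% of all genes (3.28% higher and 6.7% lower). The libraries of the 2 groups did not overlap for 9 of the 10 markers, and for 42.5% of all genes. Without MDSC replicate 1, 3 of the 5 were called, since Ly6c1 and Mertk were lost. This split by class depended on the threshold, which the monocytic Csf1r passed as higher with upper quartile factors (6 markers called, 3 higher and 3 lower), with the length correction (5 called, 3 higher and 2 lower, as Mertk was lost), and without MDSC replicate 2 or 4 or CITED replicate 4.

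The comparison of MDSC-NP-Blk with MDSC uses the same MDSC libraries. Of the 10 markers, 8 passed the test, 6 higher and 2 lower, where 38.6% of all genes passed (19.9% higher and 18.6% lower). Csf3r and Retnlg were differentially expressed, and 0 monocytic markers were, against 4.74% of all genes (1.88% higher and 2.86% lower). A monocytic marker was added to these 2 under some settings, Csf1r as higher with the length correction and Mertk as lower with library size alone. The libraries did not overlap for 7 of the 10 markers, and for 35.6% of all genes. F13a1 and Mertk were the 2 markers that fell. Between CITED and MDSC-NP-Blk, which differ in the rapamycin load, 5 markers passed the test, 2 higher and 3 lower, where 22% of all genes did (10.5% higher and 11.4% lower). Here Ly6c1, Ly6c2, and F13a1 fell and Adgre1 and Csf3r rose, and Ly6c1 and F13a1 were differentially expressed, against 2.65% of all genes (0.651% higher and 2% lower). The libraries did not overlap for 7 of the 10 markers, and for 21.2% of all genes.

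Relative to MDSC, the granulocytic markers had a median log2 fold change of 1.54 for CITED and 1.34 for MDSC-NP-Blk, and the monocytic markers had −0.35 and 0.31. The mean log2 CPM of the 7 monocytic markers minus that of the 3 granulocytic markers was −0.69 ± 0.18 (SD, n = 4), −1.62 ± 0.10, and −2.28 ± 0.07 in the MDSC, MDSC-NP-Blk, and CITED libraries. The 3 groups did not overlap in this difference. In the same order of groups, the granulocytic mean was 7.46, 8.51, and 8.59, whereas the monocytic mean was 6.78, 6.89, and 6.30. The difference between MDSC and MDSC-NP-Blk thus lay mostly in the granulocytic mean and that between MDSC-NP-Blk and CITED mostly in the monocytic mean. In MDSC-NP-Blk against MDSC, the monocytic genes moved both ways, from −0.77 (Mertk) to 0.90 (Csf1r), so their level mean does not show unmoved genes. The granulocytic mean rose mainly through Retnlg (1.57) and Csf3r (1.34), with Ly6g at 0.23. The monocytic mean weights each gene equally, and its genes did not fall together in CITED against MDSC-NP-Blk. F13a1 fell most, being 4.01-fold lower, followed by Ly6c1 (log2 fold change −1.36), which had few counts. Ly6c2 (−0.73) and Mertk (−0.31) fell less. Fn1 had −0.05, and Csf1r (0.09) and Adgre1 (0.22) were higher. The fall of this mean is therefore not a shift of the whole class. The means describe chosen genes and were not tested.

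**Figure D3:**
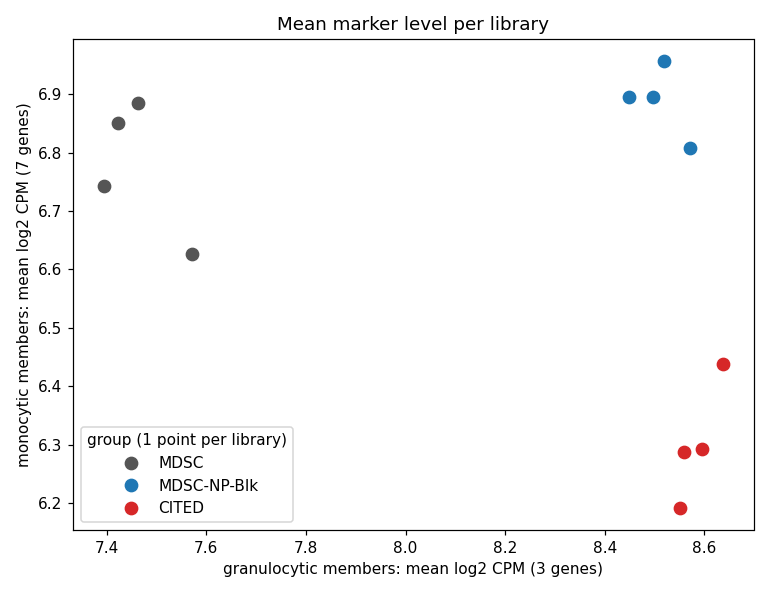
Mean log2 CPM of the 7 monocytic markers (vertical axis) against that of the 3 granulocytic markers (horizontal axis), with 1 point per library. MDSC lies to the left, with granulocytic means of 7.39 to 7.57, and CITED lies at the lower right, with monocytic means of 6.19 to 6.44.

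Pairs of markers with like roles gave different pictures. The ratio of Ly6c2 to Ly6g counts was 6.53 ± 0.0873 (SD, n = 4), 7.35 ± 0.785, and 4.42 ± 0.241 in the MDSC, MDSC-NP-Blk, and CITED libraries. For Csf1r to Csf3r it was 2.62 ± 0.146, 1.92 ± 0.0368, and 1.79 ± 0.101, and MDSC-NP-Blk and CITED overlapped. For F13a1 to Retnlg it was 0.630 ± 0.0648, 0.138 ± 0.0193, and 0.0336 ± 0.00652, with no overlap between groups. The Ly6 pair, which is closest to the antigens used in sorting, was higher in MDSC-NP-Blk than in MDSC, whereas both other pairs were lower.

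Scaled by transcript length, as CPM per kb, Ly6c2 was the most abundant marker in MDSC (1246 ± 24.8, SD, n = 4) and in MDSC-NP-Blk (1632 ± 23.2). In CITED, Retnlg had the highest mean (995 ± 118), and Ly6c2 was next (980 ± 62.6), and these 2 levels overlapped. In MDSC, Retnlg followed at 325 ± 24.9, then Ly6g at 168 ± 4.45 and Fn1 at 140 ± 13.7. Csf1r (75.9 ± 3.24), Csf3r (50.2 ± 4.51), and Adgre1 (45.6 ± 1.85) were lower, and Csf3r and Adgre1 overlapped. F13a1 (31.1 ± 1.73), Mertk (2.86 ± 0.352), and Ly6c1 (1.24 ± 0.463) closed the order. Ly6c1 was the lowest of the 10 in each group. In CITED, Csf1r (151 ± 1.75) and Csf3r (146 ± 8.09) overlapped in length-scaled level, as did Ly6g (196 ± 5.87) and Fn1 (194 ± 9.56).

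**Figure D4:**
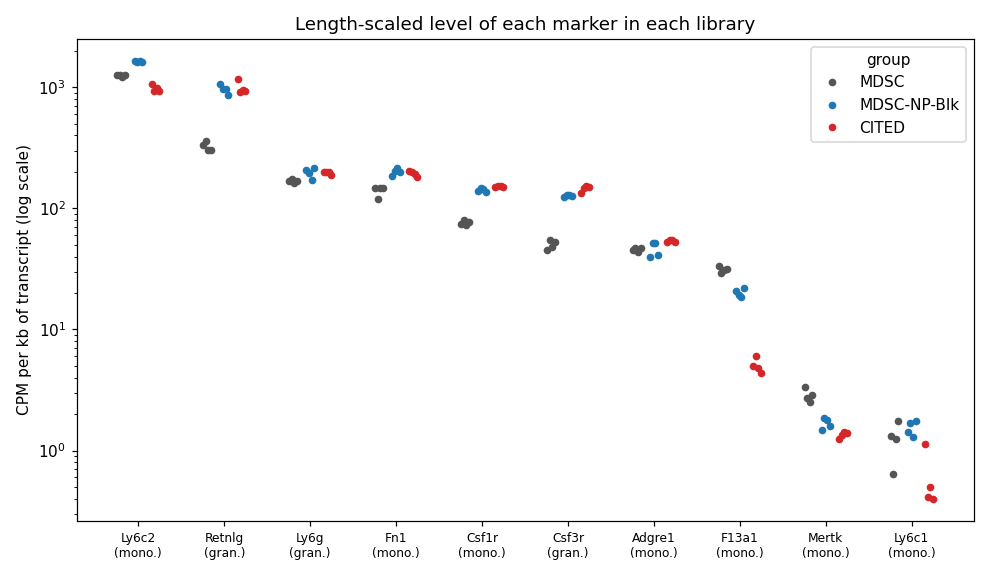
Length-scaled level of each marker (CPM per kb of the canonical transcript, log scale) in the 12 libraries, ordered by the mean in MDSC. Ly6c2 and Retnlg lie highest, Ly6c1 lies lowest, and F13a1 shows the widest gap between CITED and the other groups, at 4.33 to 6.02 in CITED against 29.1 to 33.3 in MDSC.

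Over the 12 libraries, the genes whose log2 CPM followed each marker most closely were ranked by Pearson's r, as a description that includes the differences between groups. The monocytic Ly6c2 was followed by Chil3 (r = 0.997), which is on the neutrophil granule list used below, and Serpinb1a (r = 0.993). Csf1r was followed by Actg1 (r = 0.998) and Cd14 (r = 0.998). For Csf3r, the 2 closest were Irf1 (r = 0.998) and the monocytic marker Csf1r (r = 0.996). F13a1 was followed by Knstrn (r = 0.996) and Lta4h (r = 0.995), and Retnlg by Glipr1 (r = 0.995) and Rps27rt (r = 0.995). Between markers, r was 0.986 for the monocytic Csf1r and the granulocytic Retnlg, and −0.74 for the monocytic pair Csf1r and F13a1. All of these points share their libraries and the group differences.

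Wider lists of lineage genes showed that neutrophil transcripts were themselves divided. Of 23 tested genes of mature neutrophils, 17 passed the test as higher and 4 as lower in CITED against MDSC. As higher and lower, 7 and 0 were differentially expressed, and the median log2 fold change was 0.44. Of all genes tested, 22.2% passed in each direction in this comparison, and 3.28% and 6.7% were differentially expressed as higher and lower. Mmp8 (1.47) and Mmp9 (1.23), which encode secreted proteases, and Selplg (1.17), which encodes a selectin ligand, rose in CITED. In MDSC-NP-Blk, 21 of the 23 passed as higher and 0 as lower, against 19.9% and 18.6% of all genes, and the median was 0.58. Of 17 tested granule genes, made earlier in neutrophil formation, 3 passed as higher and 13 as lower in CITED against MDSC, and 0 and 7 were differentially expressed. The primary granule genes Mpo (−4.41), Elane (−3.27), and Ctsg (−2.70) fell in CITED. Against MDSC-NP-Blk, 1 of the 17 passed as higher and 16 as lower in CITED, where 10.5% and 11.4% of all genes did. The median was −0.80. In MDSC-NP-Blk, 9 passed as higher and 6 as lower against MDSC, and the median was 0.16. The summed levels of the B cell, T and NK cell, eosinophil, and basophil markers given above were lowest in CITED as well, and the link was not tested.

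The monocyte and macrophage lists were divided as well. Of 20 monocyte genes other than the 7 markers, 7 passed the test as higher and 7 as lower in CITED against MDSC. Their median log2 fold change was 0.02. Of all genes tested, 22.2% passed in each direction in this comparison. Cd14, a coreceptor for lipopolysaccharide, rose by 2.97, and Ccr2, the receptor that guides monocytes out of bone marrow, had −1.18. Of 20 macrophage genes, 3 passed as higher and 10 as lower, with a median of −1.16, and 13 of the 20 had a mean normalized count above 50. This median covers all 20 genes, and is thus affected by genes with almost no counts. Among these were Timd4 (mean normalized count 0.20, log2 fold change −2.60), Vsig4 (0.17, −2.26), and Folr2 (0.60, −1.99), none of which passed the test. The complement genes C1qa (−4.05) and C1qc (−4.04) and the mannose receptor gene Mrc1 (−2.81) fell in CITED, and Gpnmb (1.02) rose. In MDSC-NP-Blk, 2 of the 20 macrophage genes passed as higher and 11 as lower, against 19.9% and 18.6% of all genes tested. All values in this and the preceding paragraph are log2 fold changes from the same edgeR fit.

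**Figure D5:**
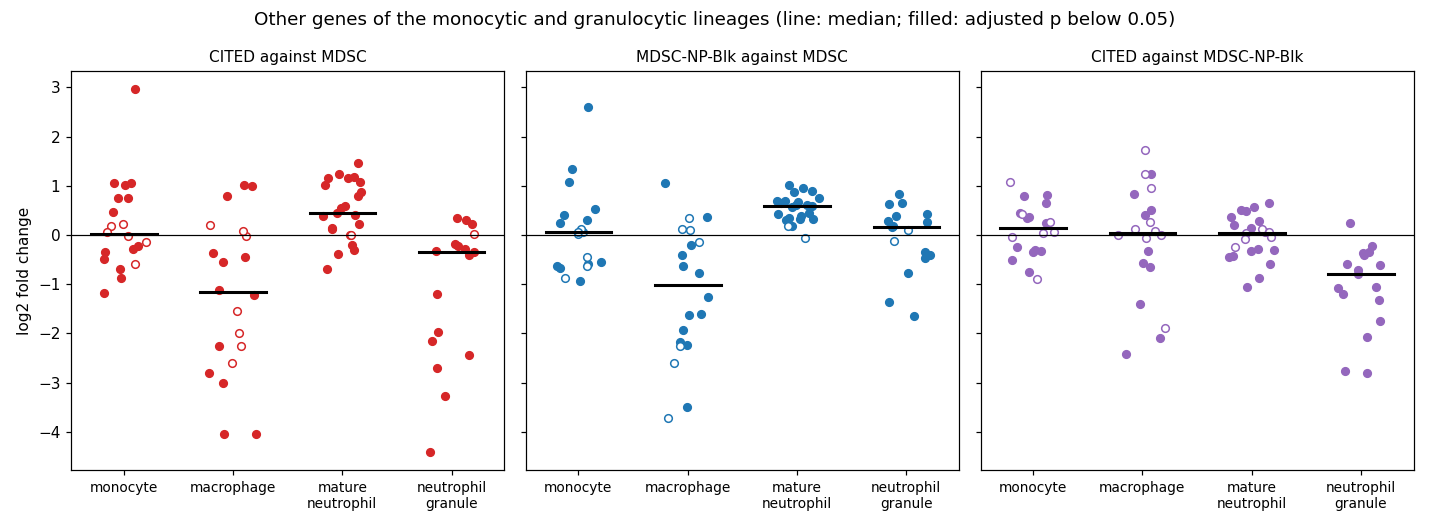
Log2 fold changes (vertical axis) of the tested genes of the monocyte, macrophage, mature neutrophil, and neutrophil granule lists in the 3 comparisons, with 1 point per gene, lines at the medians, and filled points for adjusted p below 0.05. The genes of the granule list have medians of −0.35 for CITED against MDSC and −0.80 against MDSC-NP-Blk. Those of the mature neutrophil list have medians of 0.44 and 0.58 in the comparisons against MDSC.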

How the data were processed

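RNA was enriched for poly(A) and sequenced in 12 libraries. The authors quantified reads with Salmon 1.4.0 on GENCODE transcripts of GRCm39 (release not given in the sources used here), summed them per gene with tximport in R 4.3.2, and deposited whole-number counts per gene symbol with no normalization or filter. Salmon divides reads shared by near-identical transcripts by estimation, which bears on Ly6c1 and Ly6c2. One entry with an empty symbol, holding 0 counts, was left out. Groups and replicate numbers came from the sample titles.

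All 12 libraries entered 1 negative binomial fit of the group in edgeR 4.0.16 (R 4.3.3) with TMM factors, tested with glmQLFTest on symbols having at least 2 counts in all. P-values were adjusted over all tested genes (Benjamini-Hochberg). A gene passed the test at an adjusted p below 0.05 and was differentially expressed if its absolute log2 fold change also reached 1. The SE is the absolute log2 fold change over the square root of F. Log2 CPM used a prior count of 2. Lengths and positions were taken from canonical transcripts of GENCODE release 39, and 31-base words were compared between transcripts on the same strand. The fit was tested on simulated counts with equal numbers of rises and falls and no length trend, which does not test the choice of normalization. Figures were drawn with matplotlib 3.10.9.

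The markers and gene lists were chosen with earlier results of these data known. The naming rule took the markers, the 2 genes most like each, family and pathway genes with a mean normalized count above 50, the 3 list genes with the lowest p per direction, and MDSC genes. The text names a part of these, and Retn, Retnla, Retnlb, and Csf1r-ps outside the rule. As alternatives, results were recomputed with DESeq2 1.42.0, with other normalizations or low-count filters, on just the 8 libraries compared, with a replicate block, with a length correction (loess, span 0.5), with Ly6c1 and Ly6c2 summed, with other fold thresholds, and without each library.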

Additional observations from a re-analysis of the deposited data

Results flagged for a closer look

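In each of the 30 combinations of marker and group, the highest and lowest libraries were compared with the rest by Dixon's criterion for 4 samples, and 4 values from 3 libraries stood apart, where chance flags about 1 group in 20. Ly6c1 had a normalized count of 30 in CITED replicate 1, against 10.6 to 13.3 in the others. Fn1 had 24687 in MDSC replicate 2, against 30298 to 30398. Ly6g had 4356 in CITED replicate 4, against 4621 to 4643, and Retnlg had 17372 in CITED replicate 1, against 13654 to 14112.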

How the results depend on the processing

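Of 657 recomputed log2 fold changes of the 10 markers, 641 kept their direction and side of the threshold, 7 lost significance, 3 gained it, and 6 reversed. A change of sign was counted as a reversal only where one of the values passed the test. For 5016 values of the other genes under the naming rule, these numbers were 4887, 59, 47, and 23. With library size alone, the median log2 fold change of genes with a mean normalized count above 50 against MDSC was −0.26 for CITED as well as MDSC-NP-Blk, and the share of calls that were higher went from 32.9% to 12.6% and from 39.7% to 12.1%. Under this setting, the values that reversed in CITED against MDSC were Adgre1 (−0.035), Ly6g (−0.057), Adgre5 (−0.036), Itga5 (−0.014), Rfx5 (−0.024), Ccr7 (−0.018), Ptprc (−0.21), and S100a9 (−0.27). In MDSC-NP-Blk against MDSC they were Adgre1 (−0.24), Ly6g (−0.032), Adgre5 (−0.11), Csf2ra (−0.050), Itga5 (−0.20), Itgav (−0.041), Itgb1 (−0.020), Cux1 (−0.20), Pira12 (−0.24), Cd68 (−0.013), Prg2 (−0.18), Prss34 (−0.015), Itgam (−0.021), and Ptprc (−0.13). Relative to this median of −0.26, Ly6g was 0.20 and 0.23 higher under this setting. With the length correction, Ly6g (−0.031), Il6st (0.26), Itgav (0.27), Cux1 (0.22), and S100a9 (−0.26) reversed in CITED against MDSC, and Ly6g (−0.026) and Prg2 (−0.19) in MDSC-NP-Blk against MDSC. The cause of these reversals was not tested.

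Below, counts are given for CITED and then MDSC-NP-Blk, each against MDSC, and last for the 2 nanoparticle groups against each other. With no fold threshold, 7862, 6815, and 3883 genes and 10, 8, and 5 markers passed. Tested against the fold threshold with glmTreat, 722, 143, and 59 genes and 3, 2, and 1 markers passed. With each library left out, 3 to 6 markers were called in the first comparison, 3 of them without MDSC replicate 1, and 2 in each of the others. With Ly6c1 and Ly6c2 summed, 1 marker was called in CITED against MDSC-NP-Blk, and the change of the monocytic minus granulocytic mean was −0.54, against −0.66 as reported and −0.48 without both genes. With the length correction, this change against MDSC was −1.40 for CITED and −0.76 for MDSC-NP-Blk, instead of −1.60 and −0.93. With a replicate block, 1621, 766, and 441 genes were called, and 5, 2, and 2 markers, as without it. Libraries with the same number had correlations of −0.06 to 0.14, so the numbers were not taken as pairs. Ly6c1 had 9 to 66 counts per library, the fewest of the 10 markers.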
